A study of Mus musculus with 6 samples.

Results

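Glycoproteins and proteoglycans that sit between the collagen fibres of the liver are described here through 10 genes: Fn1, Lum, Dcn, Bgn, Sparc, Postn, Thbs1, Thbs2, Tnc and Vcan. They were taken by gene symbol from a table of 24532 genes, and all 10 passed the filter on low counts that left 14415 genes for testing. Livers came from 6 wild-type C57BL/6 mice, all fed 0.1% DDC in the diet (3,5-diethoxycarbonyl-1,4-dihydrocollidine, a toxin that injures bile ducts and scars the liver) over 4 weeks. Over the last 2 weeks, 3 mice were injected with recombinant human cytoglobin (rhCYGB; 2 mg/kg per injection, 2 injections a week) and 3 with its saline vehicle, and livers were removed 2 days after the last dose. Because both groups ate the diet, the comparison is of injured livers with and without rhCYGB, and no liver without DDC is part of it. The age and sex of the mice are not in the labels.

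Scar tissue is not collagen alone. Fibronectin, the product of Fn1, is laid down early in wounds as a provisional scaffold on which collagen assembles. Decorin, lumican and biglycan are small leucine-rich proteoglycans, with a horseshoe-shaped core that binds collagen and sets fibril width. Versican is a large chondroitin sulfate proteoglycan that binds hyaluronan. Tenascin C, periostin, the thrombospondins 1 and 2 and SPARC are called matricellular proteins, since they act less as structure than as regulators of how cells meet the matrix, and most are abundant only in development and repair. In liver, stellate cells and portal fibroblasts are the main source of most of these proteins, while hepatocytes make the fibronectin that circulates in plasma.

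All 6 libraries were liver by their markers, with Alb between 62647 and 75256 TPM, the length-adjusted unit in which every library sums to the same total. Total estimated counts ran from 58422095 to 72431373. The TMM scaling factors, which adjust each library's total for its composition, were 1.07 to 1.45 with vehicle, 1.18 in rhCYGB replicate 1, and 0.744 and 0.630 in rhCYGB replicates 2 and 3. Across the libraries, the median deviation of the 10 genes from their own 6-library mean, in log2 CPM (counts scaled to a common library total), was 0.37, 0.42 and 0.21 in the vehicle livers. It was 0.06, -0.17 and -1.14 in rhCYGB replicates 1 to 3, so rhCYGB replicate 3 lay farthest from the rest and rhCYGB replicate 1 nearest to vehicle. The labels alone place that library in the rhCYGB group, since an injected protein leaves no transcript to check, so whether its label or dosing was in order was not tested, which touches every rhCYGB mean below. Values below are TMM-scaled CPM in vehicle replicates 1 to 3 and then rhCYGB replicates 1 to 3. Each fold change is the log2 ratio of rhCYGB to vehicle. For edgeR, which gives no standard error (SE), it was derived as the absolute log2 ratio over the square root of the quasi-likelihood F statistic.

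With rhCYGB, 9 of the 10 genes had lower values and Sparc had higher ones, but 0 of 10 passed edgeR's test at an adjusted p of 0.05, where 0% of all genes passed. Over all genes tested, 53.2% had lower values. The median log2 fold change was -0.65 over the 10 genes and -0.06 over all genes. In Lum, Postn, Thbs2 and Tnc, that is 4 of 10, every rhCYGB liver lay below every vehicle liver, against 7.38% of all genes, and in 0 of 10 did every rhCYGB liver lie above, against 6.02%. In TPM these were Lum, Bgn, Thbs2 and Tnc, 4 of 10 against 12.7%, and in counts divided by the library total alone they were Lum, Bgn, Postn, Thbs2 and Tnc, 5 of 10 against 14.8%. At an unadjusted p of 0.05, edgeR called 1 of 10, Tnc, which was lower, against 8.12% of all genes in either direction and 2.06% lower. The DESeq2 test also called 0 of the 10, with 4 given an adjusted p and 6 given none, and it called 3.28% of the 1890 genes with an adjusted p.

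Calls among the 10 genes appeared in 2 other fits. With limma-voom and quality weights for each library, Dcn, Thbs1 and Tnc were called lower and Sparc higher, against 30% of all genes called in either direction and 13.9% called lower. Leaving out rhCYGB replicate 1 gave the same 4 calls by edgeR, against 23.2% of 14647 genes called in either direction and 10.5% called lower. Without that library 8 of the 10 genes were lower without overlap, as were 34.5% of all genes. The quality weights were 0.457, 2.35 and 4.38 for the vehicle libraries and 0.173, 2.60 and 0.473 for the rhCYGB libraries, so the library that the weights counted least was rhCYGB replicate 1, the same one left out.

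**Figure D1:**
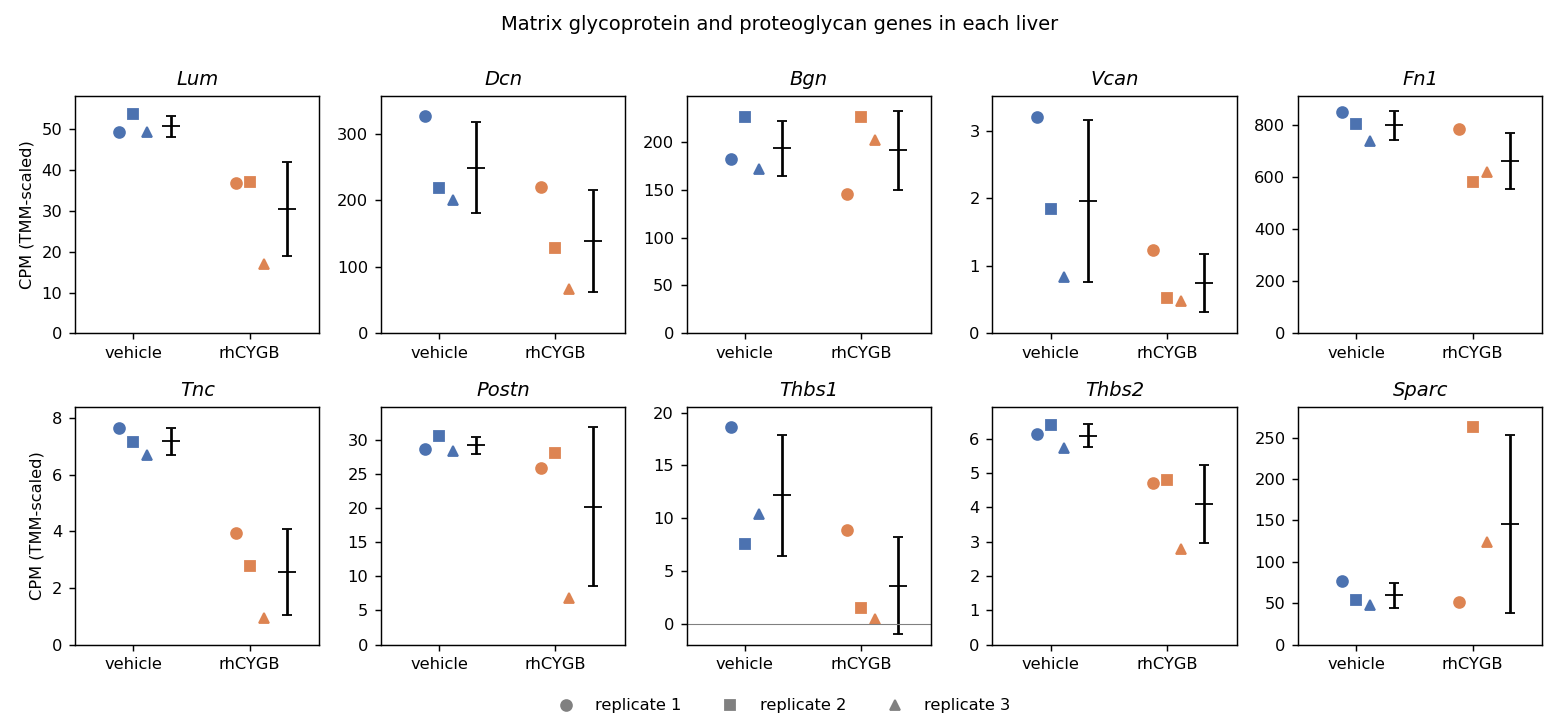
TMM-scaled CPM (y axis, from 0 except for Thbs1, where the SD bar reaches below 0) of the 10 genes in each of 3 vehicle livers and 3 rhCYGB livers. Points are single mice and bars are the mean ± SD. In Lum, Tnc, Thbs2 and Postn every rhCYGB point lies below every vehicle point, Postn by a narrow margin, and in Sparc only rhCYGB replicates 2 and 3 lie above the vehicle points.

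Among the small leucine-rich proteoglycans, only Lum had groups that did not overlap in CPM. Lum (gene ID 17022, chr10:97565501-97572703), lumican, which carries keratan sulfate chains in some tissues, was at 49.3, 53.7 and 49.3 CPM in the vehicle mice and 36.9, 37.2 and 17.1 in the rhCYGB mice. All rhCYGB livers were below all vehicle livers, with means of 50.8 ± 2.55 and 30.4 ± 11.5 (SD, n = 3 each). The log2 fold change was -0.74 (SE 0.33) and edgeR's adjusted p was 0.523. Lum stayed lower without overlap in 14 of the 14 settings that give a value per library, and its fold change ran from -1.56 on log2(TPM + 0.1), a scale that put the median gene at -0.75, to -0.46 without rhCYGB replicate 3.

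Dcn (gene ID 13179, chr10:97479500-97518163) lies beside Lum on chromosome 10 and encodes decorin, which binds collagen and TGF-beta. It was at 327, 219 and 201 CPM in vehicle livers and 219.9, 129 and 66.7 in rhCYGB livers. The groups overlapped, because rhCYGB replicate 1 was just above vehicle replicate 2, and rhCYGB replicates 2 and 3 were below all vehicle livers. Means were 249 ± 68.6 and 139 ± 77.0 (SD, n = 3 each), with a log2 fold change of -0.85 (SE 0.47) and an adjusted p of 0.523 by edgeR. Without rhCYGB replicate 1 the log2 fold change was -1.35 (edgeR adjusted p = 0.0434), and without rhCYGB replicate 3 it was -0.52.

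Bgn (gene ID 12111, chrX:73483601-73495936), biglycan, the close relative of decorin that also acts as a danger signal on macrophages, did not share that pattern. It was at 182, 226 and 172 CPM in the vehicle mice and 145, 225 and 202 in the rhCYGB mice. The groups lay across each other, with means of 193 ± 28.6 and 191 ± 41.2 (SD, n = 3 each). The log2 fold change of -0.02 (SE 0.29, edgeR adjusted p = 0.978) had no settled sign and was below 0 in 10 of 16 settings. It was 0.015 with DESeq2 size factors and -0.77 on log2(TPM + 1), a scale on which 87.2% of all genes were lower and the median gene was at -0.51. The ratio of 2 genes inside a library needs no scaling between libraries, though a trend on transcript length that differs between libraries can still enter it. For Bgn to Dcn in TPM, the ratio was 0.424, 0.786 and 0.663 in vehicle livers and 0.506, 1.35 and 2.33 in rhCYGB livers. The 2 libraries with the highest ratio were rhCYGB replicates 2 and 3, and rhCYGB replicate 1 lay within the vehicle range.

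Vcan (gene ID 13003, chr13:89655310-89742512), versican, was the scarcest of the 10 in TPM. Its estimated counts were 271, 130 and 58 in the vehicle mice and 95, 28 and 18 in the rhCYGB mice, or 3.21, 1.84 and 0.827 CPM against 1.24, 0.520 and 0.478. The groups overlapped at vehicle replicate 3 and rhCYGB replicate 1. Means were 1.96 ± 1.19 and 0.745 ± 0.427 CPM (SD, n = 3 each), with a log2 fold change of -1.38 (SE 0.64) and an adjusted p of 0.523 by edgeR. Every count of Vcan was assigned to its longest variant of 12432 bases, which carries both chondroitin sulfate regions, and the other 4 variants were listed at 0 in all 6 libraries. The vehicle livers alone differed from each other by more than the group means did.

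Fn1 (gene ID 14268, chr1:71585473-71653234) was at 850.2, 804 and 739 CPM in vehicle livers and 784, 581 and 619.8 in rhCYGB livers. The groups overlapped at rhCYGB replicate 1. Means were 798 ± 56.1 and 662 ± 108 (SD, n = 3 each), with a log2 fold change of -0.27 (SE 0.30) and an adjusted p of 0.663 by edgeR. With each library's trend of expression on transcript length removed, the value became 0.18 (SE 0.28), while on log2(TPM + 1) it was -1.04. Fn1 was below 0 in 15 of 16 settings, and its size depended on how the libraries were scaled.

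The Fn1 transcript is better known for its splicing than for its level. Hepatocytes make plasma fibronectin, which lacks the exons called extra domain A and extra domain B, and fibroblasts, endothelial cells and activated stellate cells make cellular fibronectin, which may hold either or both. The transcript table splits Fn1 into 7 variants of 7522 to 8425 bases. Variants 1, 2, 3 and 6 hold the extra domain A exon, exon 33 of 46, at chr1:71603660-71603929 on the minus strand of GRCm38. Only variant 1 also holds the extra domain B exon, exon 25 of 46, at chr1:71613763-71614035. Both exons are printed here, from the reference genome and GENCODE annotation of that build, since the division of Fn1 turns on them; all bases are in lower case because each exon is kept or skipped whole.
Fn1 extra domain A exon: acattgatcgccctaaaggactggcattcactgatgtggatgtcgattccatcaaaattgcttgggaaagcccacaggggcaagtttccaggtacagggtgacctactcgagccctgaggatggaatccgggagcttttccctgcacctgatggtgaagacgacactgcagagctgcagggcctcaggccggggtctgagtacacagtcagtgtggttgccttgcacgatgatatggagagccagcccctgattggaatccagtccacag
Fn1 extra domain B exon: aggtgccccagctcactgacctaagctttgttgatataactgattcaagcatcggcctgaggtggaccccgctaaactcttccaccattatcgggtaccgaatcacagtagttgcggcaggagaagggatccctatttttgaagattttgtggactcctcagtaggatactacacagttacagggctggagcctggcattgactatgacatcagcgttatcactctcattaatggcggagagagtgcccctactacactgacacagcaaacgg
The exons have 270 and 273 bases, multiples of 3, so that skipping either leaves the reading frame intact, and deposited lengths of variants that differ only in one of these exons differ by the same number. The other length differences, of 75 and 360 bases, match another exon of variable length.

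The share of Fn1 TPM on variants with extra domain A was 15.3%, 9.04% and 10.02% in vehicle livers, 10.6% in rhCYGB replicate 1, 97.4% in rhCYGB replicate 2, and 0% in rhCYGB replicate 3. The rhCYGB livers thus held both extremes, and their first replicate sat inside the vehicle range. In TPM, variants without the exon, the plasma form among them, were at 260.2, 167 and 171 in the vehicle mice and at 195, 2.01 and 73.3 in the rhCYGB mice. Variants with the exon were at 47.1, 16.6 and 19.1 in vehicle livers and at 23.0, 74.2 and 0 in rhCYGB livers. Extra domain B was on 2.27%, 0.00278% and 0.0121% of Fn1 in the vehicle mice and on 0.0263%, 53.0% and 0% in the rhCYGB mice. These shares are the assembler's division of reads among overlapping variants, and the tables used here hold no count of reads across the exon junctions, so 97.4% and 0% are estimates whose error was not tested.

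The division among variants was also less alike in these 2 libraries for other genes. Over 1254 genes with several transcripts and at least 10 TPM in every library, the share of a gene's TPM that lay on other variants than by the median shares of the other 5 libraries was 3.98%, 3.51% and 3.44% for the median gene with vehicle. In the rhCYGB livers it was 3.62%, 5.24% and 8.07%. The share of genes with more than 50% moved was 0.797%, 1.12% and 0.638% in vehicle livers and 0.718%, 3.91% and 9.17% in rhCYGB livers. Fn1 moved by 6.84%, 7.43% and 4.47% in the vehicle mice and by 4.11%, 88.2% and 31.9% in the rhCYGB mice, and its value in rhCYGB replicate 2 was above that of 98.9% of the genes. The part of this library-wide shift in the Fn1 result was not tested.

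**Figure D2:**
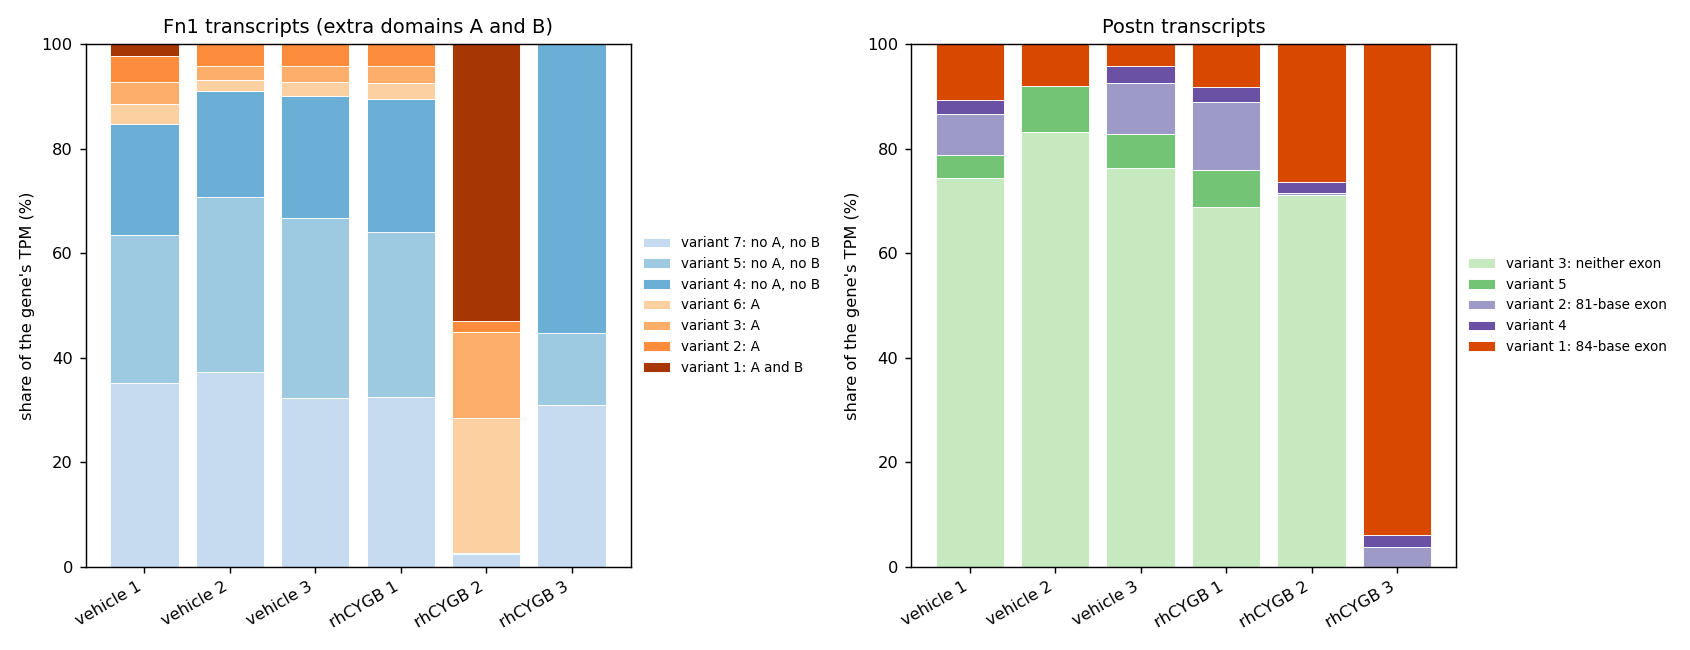
Share of each gene's TPM (y axis, percent) on each annotated variant of Fn1 and Postn in the 6 livers; the stacked colours are variants and add to 100%. Vehicle livers and rhCYGB replicate 1 look alike, while Fn1 in rhCYGB replicate 2 lies almost all on variants with extra domain A (97.4%) and Postn in rhCYGB replicate 3 lies almost all on variant 1 (93.9%).

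Tnc (gene ID 21923, chr4:63959785-64047015) encodes tenascin C, a hexameric glycoprotein that is scarce in healthy adult liver and appears at sites of repair. In edgeR's test of all 6 libraries with TMM scaling alone, Tnc was the only gene of the 10 with an unadjusted p under 0.05. That does not hold in every other fit. It was at 7.67, 7.15 and 6.71 CPM in vehicle livers and 3.95, 2.78 and 0.930 in rhCYGB livers. Every rhCYGB liver was below every vehicle liver, and the means were 7.18 ± 0.476 and 2.55 ± 1.52 (SD, n = 3 each). The log2 fold change was -1.48 (SE 0.51), with an unadjusted p of 0.0214 and an adjusted p of 0.523 by edgeR. Estimated counts behind these values were 648, 504 and 471 in the vehicle mice and 303, 150 and 35 in the rhCYGB mice. Tnc was lower without overlap in 14 of 14 settings, and its log2 fold change ran from -2.11 to -1.07 over all 16.

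Postn (gene ID 50706, chr3:54361107-54391041), periostin, which binds integrins and helps cross-link collagen, separated the groups only narrowly. It was at 28.6, 30.6 and 28.3 CPM in vehicle livers and 25.8, 28.0 and 6.77 in rhCYGB livers. The livers of rhCYGB replicates 1 and 2 were just under the vehicle livers and only rhCYGB replicate 3 was far below. Means were 29.2 ± 1.23 and 20.2 ± 11.7 (SD, n = 3 each), the log2 fold change was -0.53 (SE 0.49) and the edgeR adjusted p was 0.614. Without rhCYGB replicate 3 the log2 fold change was -0.12, so the mean difference in Postn rested on that library. Postn stayed lower without overlap in 10 of 14 settings, and the groups overlapped with DESeq2 size factors, with the length trend removed and on both log2 TPM scales.

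Periostin is spliced near its C-terminal end. Variant 1 holds an exon of 84 bases, exon 20 of 22, at chr3:54385671-54385754 on the plus strand, and variant 2 holds one of 81 bases, exon 17, at chr3:54380412-54380492. Variant 3 lacks both. They are shown because the variants are told apart by them, again without capitals since each is used whole.
Postn 84-base exon: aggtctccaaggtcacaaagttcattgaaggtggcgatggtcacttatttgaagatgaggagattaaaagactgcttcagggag
Postn 81-base exon: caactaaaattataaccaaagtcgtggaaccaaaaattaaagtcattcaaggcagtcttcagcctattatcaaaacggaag
Variant 3 made up 74.4%, 83.1% and 76.3% of Postn TPM in the vehicle mice and 68.7%, 71.1% and 0% in the rhCYGB mice. Variant 1 made up 10.7%, 8.06% and 4.30% in vehicle livers and 8.31%, 26.4% and 93.9% in rhCYGB livers. The shares in rhCYGB replicate 3 stood apart from the other 5 libraries, and there only 239 estimated counts lay on variant 1.

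Thbs1 (gene ID 21825, chr2:118111876-118127133), thrombospondin 1, released by platelets and made by many injured cells, activates latent TGF-beta and inhibits vessel growth. It was at 18.6, 7.55 and 10.4 CPM in the vehicle mice and 8.89, 1.45 and 0.478 in the rhCYGB mice, the last from 18 estimated counts. The groups overlapped because rhCYGB replicate 1 was above vehicle replicate 2. Means were 12.2 ± 5.74 and 3.60 ± 4.60 (SD, n = 3 each), with a log2 fold change of -1.75 (SE 0.96) and an adjusted p of 0.523 by edgeR. Without rhCYGB replicate 1 the log2 fold change was -3.64 (edgeR adjusted p = 0.0212), and without rhCYGB replicate 3 it was -1.25.

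Thbs2 (gene ID 21826, chr17:14665500-14694262), thrombospondin 2, which clears matrix metalloproteinases and affects collagen fibril form, varied less within each group than Thbs1 did. It was at 6.14, 6.38 and 5.73 CPM in vehicle livers and 4.72, 4.81 and 2.79 in rhCYGB livers, and the groups did not overlap. Means were 6.08 ± 0.330 and 4.10 ± 1.14 (SD, n = 3 each), with a log2 fold change of -0.57 (SE 0.32) and an adjusted p of 0.523 by edgeR. Thbs2 stayed lower without overlap in 13 of 14 settings, and its log2 fold change was -0.36 without rhCYGB replicate 3 and -0.16 with the length trend removed. The ratio of Thbs1 to Thbs2 in TPM was 3.07, 1.20 and 1.84 in the vehicle mice and 1.91, 0.306 and 0.174 in the rhCYGB mice, and it was lowest in rhCYGB replicates 2 and 3.

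Sparc (gene ID 20692, chr11:55394159-55420080) was the only one of the 10 with a higher mean with rhCYGB. It encodes osteonectin, a calcium-binding protein that escorts collagen and loosens cell attachment. It was at 77.0, 53.5 and 47.9 CPM in vehicle livers and 50.8, 262 and 124 in rhCYGB livers. The groups overlapped, because rhCYGB replicate 1 lay inside the vehicle range while replicates 2 and 3 lay above it. Means were 59.4 ± 15.4 and 146 ± 108 (SD, n = 3 each), with a log2 fold change of 1.29 (SE 0.56), an unadjusted p of 0.0545 and an adjusted p of 0.523 by edgeR. Without rhCYGB replicate 1 the log2 fold change was 1.70 (edgeR adjusted p = 0.0244), and without rhCYGB replicate 2 it was 0.56. In TPM, Sparc was at 81.9, 35.9 and 36.3 in the vehicle mice and 41.6, 107 and 42.9 in the rhCYGB mice, so on that scale rhCYGB replicate 3 lay inside the vehicle range and only rhCYGB replicate 2 lay above it. On log2(TPM + 1) the log2 fold change of Sparc was 0.27.

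**Figure D3:**
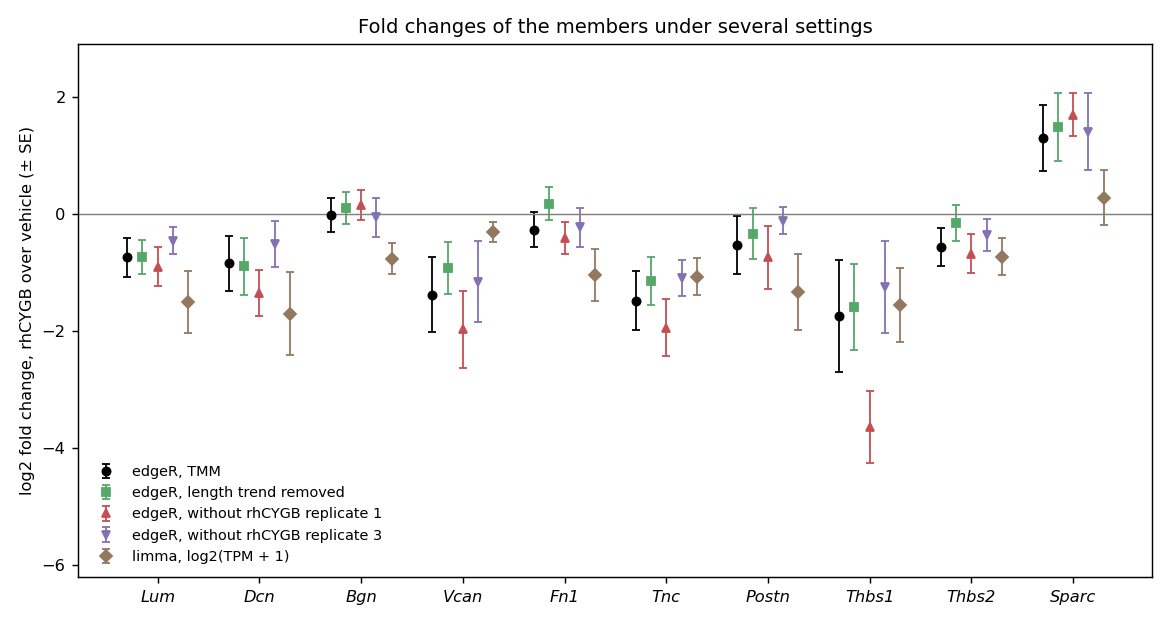
Log2 fold changes of rhCYGB over vehicle (y axis) with SE bars for each of the 10 genes under 5 settings, shown by colour and shape. Lum, Dcn, Vcan, Tnc, Postn, Thbs1 and Thbs2 lie below 0 in all 5 settings shown and Sparc above 0, while Bgn and Fn1 lie on both sides.

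Levels of different genes are compared in TPM, which accounts for length. In vehicle livers Dcn came first at 307 ± 164 TPM, followed by Fn1 at 227 ± 69.5 and Bgn at 173 ± 35.0 (SD, n = 3 each), and neighbours among these 3 overlapped. Lum at 53.4 ± 11.6 and Sparc at 51.3 ± 26.4 formed the next pair, below Bgn and overlapping each other. Postn at 20.3 ± 4.55 lay apart from its neighbours on both sides. Thbs1 at 4.92 ± 3.53, Thbs2 at 2.25 ± 0.570 and Tnc at 2.24 ± 0.692 overlapped from neighbour to neighbour, and Vcan at 0.372 ± 0.310 was lowest and apart.

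With rhCYGB the first 4 ranks were Fn1 at 123 ± 82.8, Dcn at 121 ± 119, Bgn at 102 ± 26.5 and Sparc at 63.7 ± 37.2 TPM (SD, n = 3 each), each overlapping the next. The order below them was Lum, Postn, Thbs1, Thbs2, Tnc and Vcan, and only Lum was apart from the gene ranked above it. Dcn held 41.2%, 31.6% and 32.6% of the summed TPM of the 10 genes in vehicle livers and 36.2%, 19.1% and 13.9% in rhCYGB livers. Sparc held 6.80%, 5.40% and 5.53% in the vehicle mice and 5.87%, 27.6% and 18.2% in the rhCYGB mice. In rhCYGB replicates 2 and 3 Sparc thus took a larger share, and Dcn a smaller one, than in any of the other 4 livers. The summed TPM of the 10 genes was 1205, 665 and 656 in vehicle livers and 708, 387 and 236 in rhCYGB livers. On log2(TPM + 1), 87.2% of all genes were lower with rhCYGB.

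Over all 45 pairs of the 10 genes, the TPM ratio did not overlap between the groups in 8. Tnc was in 7 of these, and the other was Lum with Thbs2. Pairs share genes and the share over pairs of all genes was not computed. The count thus mostly restates the values of Tnc and is no result about the 10 genes as a set. The ratio of Tnc to Thbs2 was 1.04, 0.935 and 0.978 in the vehicle mice and 0.698, 0.484 and 0.273 in the rhCYGB mice. The ratio of Sparc to Fn1 was 0.266, 0.195 and 0.190 in vehicle livers and 0.190, 1.40 and 0.586 in rhCYGB livers. That of Bgn to Lum was 3.16, 3.60 and 2.99 in the vehicle mice and 3.38, 5.19 and 10.1 in the rhCYGB mice. In the latter pair of ratios rhCYGB replicate 1 was at or within the vehicle range and the other rhCYGB livers were above it. The pairs given by value were chosen after their values were seen. Ratios of genes of unlike length can carry a trend on transcript length that differs between libraries. With that trend removed, the log2 fold change moved from -0.27 to 0.18 for Fn1 and from 1.29 to 1.48 for Sparc.

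**Figure D4:**
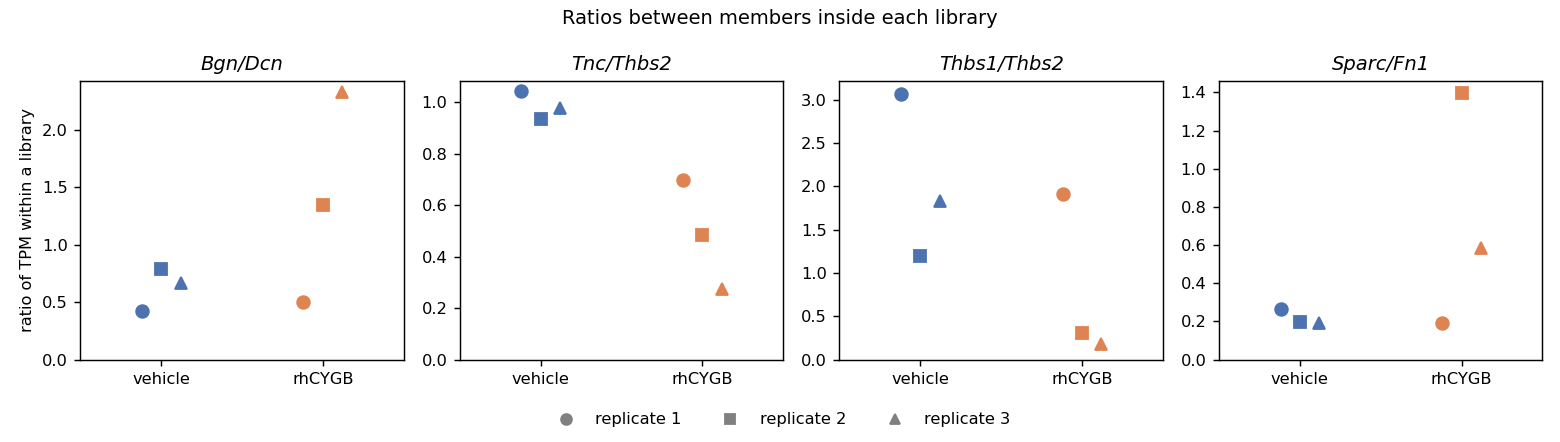
Ratios of TPM between pairs of the 10 genes inside each library (y axis, no unit, from 0), with 1 point per liver for vehicle and rhCYGB. Tnc over Thbs2 is lower in all 3 rhCYGB livers, at 0.273 to 0.698 against 0.935 to 1.04, and the other ratios shown overlap between the groups.

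At the level of transcripts, the 10 genes have 27 entries, of which 23 could be tested. By edgeR 0 of 23 had an unadjusted p under 0.05, against 4.04% of 19664 transcripts, and 0 passed the adjusted threshold, against 0%. In 5 of 23 every rhCYGB liver was below every vehicle liver, against 7.77% of transcripts. These were Lum, Thbs2, Tnc, variant 1 of Thbs1 and variant 3 of Postn. The last 2 depend on the division among variants. Variant 1 of Thbs1 was at 0 in rhCYGB replicate 1, and variant 3 of Postn at 0 in rhCYGB replicate 3. Thbs1 as a whole gene overlapped between the groups. Dcn has 2 variants that differ in their first exon, and variant 1 held 51.8%, 46.7% and 82.2% of Dcn TPM in vehicle livers and 53.5%, 79.8% and 69.2% in rhCYGB livers, with no separation by group. The 2 variants of Sparc and the 2 of Thbs1 differ by only 3 bases in length, so their division is uncertain. For Thbs1 all estimated counts in rhCYGB replicate 1 were on variant 2, and all in rhCYGB replicates 2 and 3 were on variant 1.

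Promoter sequences from RefSeq (GRCm38.p6) were at hand for 6 of the 10 genes in 8 windows, and the 250 bases before each start were searched. The TATA box motif TATAAA, or TTTATA on the other strand, was in 4 of 8 windows, those of Postn, Thbs2 and Tnc, and in 12.4% of 32851 windows of that length. The 2 windows of Tnc overlap and hold the same match, so the matches are 3 in number. The AP-1 motif TGACTCA, searched on both strands, was in 0 of 8 windows and in 4.46% of all windows. The TEAD motif GGAATG, also searched on both strands, was in 0 of 8 and in 12.6%. The 3 genes with a match to TATAAA or TTTATA are shown from 5′ to 3′ on the gene's strand, with the match in capitals. No window was at hand for Lum, and any tie between the motif and the values of these genes was not tested. The windows are chr3:54360857-54361106 (plus strand), chr4:64047016-64047265 (minus strand) and chr17:14694263-14694512 (minus strand).
Postn: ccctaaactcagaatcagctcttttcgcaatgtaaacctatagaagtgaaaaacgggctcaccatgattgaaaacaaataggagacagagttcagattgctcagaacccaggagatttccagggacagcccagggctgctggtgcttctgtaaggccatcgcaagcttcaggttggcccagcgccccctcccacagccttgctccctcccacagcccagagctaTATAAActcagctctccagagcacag
Tnc: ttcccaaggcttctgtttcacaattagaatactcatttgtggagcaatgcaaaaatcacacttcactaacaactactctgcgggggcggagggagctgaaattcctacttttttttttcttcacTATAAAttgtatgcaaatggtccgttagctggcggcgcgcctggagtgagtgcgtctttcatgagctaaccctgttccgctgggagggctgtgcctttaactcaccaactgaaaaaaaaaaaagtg
Thbs2: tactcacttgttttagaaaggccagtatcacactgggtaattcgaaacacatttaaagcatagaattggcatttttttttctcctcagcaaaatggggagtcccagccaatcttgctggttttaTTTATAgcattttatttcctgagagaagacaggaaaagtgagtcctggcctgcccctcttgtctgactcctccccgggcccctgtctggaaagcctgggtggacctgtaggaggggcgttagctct
The match begins 26 bases before the start in Postn and 126 bases before it in Tnc and Thbs2. A match is a string of letters only, and no measure of factor binding is part of these data.

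Genes that work with these proteins were grouped in 4 lists, whose counts without overlap stand against 7.38% of all genes lower and 6.02% higher. Of 50 other matrix glycoproteins and proteoglycans, 35 were tested, 21 had lower values, 5 (14.3%) were lower and 2 (5.71%) higher without overlap, and the median log2 fold change was -0.08, near that of all genes. Vtn (vitronectin, an adhesive plasma protein made by hepatocytes) and Igfbp7, the most abundant of them, were at log2 fold changes of 0.64 (SE 0.51) and -0.18 (SE 0.33). By edgeR 3 of the 35 had an unadjusted p under 0.05, against 8.12% of all genes in either direction. Of these 3, 2 were lower, against 2.06% of all genes. These were Omd (osteomodulin) at 1.68, Tgfbi (a collagen-binding glycoprotein) at -0.87 and Sparcl1 (the closest relative of Sparc) at -0.69, named after their values were seen. Sparc and its relative thus had log2 fold changes of opposite sign, neither past the adjusted threshold.

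Of 22 receptors, among them integrins, syndecans and CD44, 21 were tested, 14 had lower values, 4 (19.0%) were lower and 1 (4.76%) higher without overlap, and the median was -0.29. Sdc1 and Sdc4, syndecans that bind fibronectin and the thrombospondins, were at -0.27 (SE 0.35) and 1.03 (SE 0.48). Itga4, a subunit of an integrin that binds fibronectin, was at -1.02 and the only receptor with an unadjusted p under 0.05 by edgeR. That is 1 of 21, against 8.12% of all genes in either direction and 2.06% lower. Of 27 enzymes that build chondroitin and dermatan sulfate chains and hyaluronan, 22 were tested, 16 had lower values, 3 (13.6%) were lower and 1 (4.55%) higher without overlap, and the median was -0.53. Ugdh, which makes the glucuronic acid donor, was at 0.20 (SE 0.37) and B3gat3, which completes the linker on the core protein, at 0.99 (SE 0.45). Chst11, a chondroitin 4-sulfotransferase, was at -1.68 and was the only such enzyme with an unadjusted p under 0.05 by edgeR. That is 1 of 22, against the same shares of all genes.

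Of 18 genes for proteases of matrix proteins or for the breakdown of hyaluronan, 14 were tested, 9 had lower values, 1 (7.14%) was lower and 1 (7.14%) higher without overlap, near the shares of all genes, and the median was -0.46. Plg (plasminogen) was at 0.45 (SE 0.37) and Hyal2, a hyaluronidase, at 0.63 (SE 0.28). Plau, urokinase, which turns plasminogen into plasmin, was at -1.64 and the only gene of this list with an unadjusted p under 0.05 by edgeR. That is 1 of 14, against 8.12% of all genes in either direction and 2.06% lower. In none of the 4 lists did a gene pass edgeR's adjusted threshold. The 3 named after their unadjusted p, Itga4, Chst11 and Plau, were chosen after their values were seen.

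In bulk liver RNA, fewer cells of a type and less RNA per cell cannot be told apart, so the levels of cell type markers are given beside those of the 10 genes. The sums are in TPM, and on log2(TPM + 1) 87.2% of all genes were lower with rhCYGB, 12.7% lower without overlap. A lower sum is thus not by itself a measure of fewer cells. Counts of markers with lower values and median fold changes are from edgeR. The summed TPM of 12 stellate cell and portal fibroblast markers was 219 to 346 in the vehicle mice and 31.6 to 165 in the rhCYGB mice. The collagen genes Col1a1 and Col3a1 made up 30.8% to 74.6% of that sum, and the other 10 markers summed to 56.6 to 103 and to 21.9 to 59.99, with overlap between the groups. Of the 12 markers, 10 had lower values, and the median log2 fold change was -0.67. Among its defining genes, Col1a1 was at -1.11 and Lrat at -0.67, Des and Hand2 were at 0.24 and 1.16, and Ngfr was at 0 in rhCYGB replicate 3. The summed TPM of 8 hepatocyte markers was 88809 to 102373 in vehicle livers and 104956 to 122211 in rhCYGB livers, and 0 of the 8 had lower values. Without Alb the other 7 summed to 26039 to 36300.0 and to 29700.4 to 48546, which overlapped. Bile duct markers summed to 1171 to 2048 TPM in the vehicle mice and 124 to 879 in the rhCYGB mice, with 4 of 7 lower. Spp1 alone was 58.9% to 94.8% of that sum. The other 6 summed to 60.5 to 125 and to 50.8 to 57.5, without overlap. Krt19, Krt7 and Muc1 had log2 fold changes of 0.62, 0.41 and 0.38. Epcam, Sox9, Cftr and Spp1 were at -0.64, -0.83, -0.94 and -1.53.

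Platelet markers, of interest for Thbs1, summed to 31.6 to 47.1 TPM in vehicle livers and 10.5 to 26.7 in rhCYGB livers, with Gp6 at 0 in every library. Pf4 alone was 69.9% to 94.9% of that sum, and the other 7 summed to 2.39 to 6.77 and to 3.17 to 4.07, which overlapped. Of the 5 platelet markers tested 2 had lower values, and the median log2 fold change was 0.22. Macrophage markers summed to 2053 to 3218 TPM against 729 to 1628, with 5 of 8 lower, and overlapped at 471 to 652 against 189.8 to 480.4 without Lyz2. Smooth muscle markers summed to 33.7 to 71.7 against 10.5 to 34.2, with 3 of 5 lower, and overlapped, though without Tagln they did not. Endothelial markers summed to 31.99 to 66.1 against 6.54 to 52.2, with 6 of 7 lower, and mesothelial markers to 9.43 to 14.4 against 9.48 to 11.2, with 2 of 5 lower, and both of these overlapped. Median log2 fold changes by edgeR were 0.95 for hepatocyte, -0.64 for bile duct and -0.17 for macrophage markers. They were -0.44 for endothelial, -0.07 for smooth muscle and 0.12 for mesothelial markers, against -0.06 over all genes. The part of these cell types in the values of the 10 genes was not tested.

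**Figure D5:**
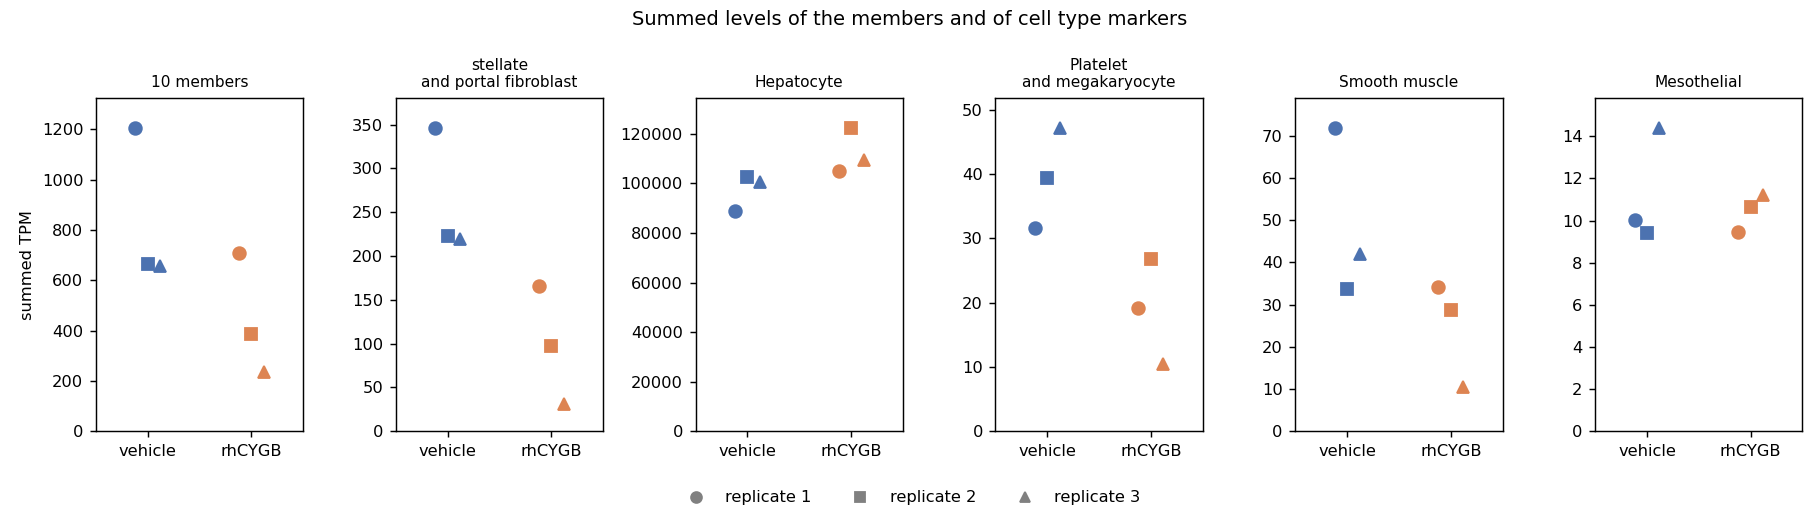
Summed TPM (y axis, from 0) of the 10 genes and of marker lists for liver cell types, with 1 point per liver for vehicle and rhCYGB. On log2(TPM + 1), 87.2% of all genes were lower with rhCYGB. The stellate and portal fibroblast sum is lower in all 3 rhCYGB livers, 31.6 to 165 against 219 to 346, but overlaps (21.9 to 59.99 against 56.6 to 103) once Col1a1 and Col3a1 are left out. The hepatocyte sum is higher in all 3, but overlaps without Alb, and the platelet sum, mostly Pf4, overlaps without that gene.

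How alike the 10 genes were was described by Pearson's r over the 6 libraries, which share their scaling. With the mean of the standardised log2 CPM of the 10 genes, r was 0.981 for Thbs2, 0.968 for Tnc, 0.964 for Lum, 0.942 for Dcn, 0.901 for Postn, 0.886 for Thbs1, 0.826 for Vcan and 0.741 for Fn1. For Bgn it was -0.05 and for Sparc -0.43. Each of the 10 genes is part of that mean, which raises its own r. Outside the group, the most alike of 7711 genes with a mean CPM of at least 10 were Rbm45 (r = 0.996), Tgif1 (0.996), Cygb (0.990), Copg1 (0.988) and Ccr2 (0.987). The mouse gene Cygb, which encodes the cell's own cytoglobin and marks stellate cells, was at 31.3, 29.9 and 22.2 CPM in the vehicle mice and 19.4, 14.8 and 6.64 in the rhCYGB mice. Ccr2, the chemokine receptor of monocytes, was at 19.4, 16.1 and 12.5 CPM in vehicle livers and 7.40, 5.77 and 1.70 in rhCYGB livers.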

How the data were processed

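Liver mRNA from 6 mice, 3 per group, was sequenced from both ends after stranded poly(A) library preparation, per the labels. Each animal has its own number in the labels, so replicates are different mice, numbered here in deposition order, and the numbers pair nothing. The authors deposited estimated counts and FPKM per gene and per transcript, made from reads aligned to mm10. HISAT2 2.1.0, StringTie 1.3.4d and FastQC 0.11.7 are named in the submitters' processing notes. The strand setting and annotation release were not given in the sources used here. In each library at least 99.8% of transcripts over 5 FPKM had counts within 1% of FPKM times length times a constant, so the counts carry the assembler's division among isoforms. The number of per-library columns without a sample was 0.

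Counts, already whole numbers, were tested in R 4.3.3 with edgeR 4.0.16 (filterByExpr, TMM, robust quasi-likelihood F test, Benjamini-Hochberg adjustment over all 14415 genes or 19664 transcripts kept, threshold 0.05). TPM was made here from the deposited FPKM by dividing by each library's sum. Limma 3.58.1 and DESeq2 1.42.0 served as alternatives, and fold changes on log2(TPM + 1) understate those of low genes. On data simulated for this comparison with 200 changed genes, edgeR recovered 0% of 2-fold changes among 14222 genes, 35.5% of 4-fold changes among 14228 and 78% of 8-fold changes among 14231, with 0 calls among 14235 genes when nothing changed. Genes were drawn independently there, so no simulated library differed from the others across many genes at once. The rates may therefore not hold for these libraries. Estimated counts are made from reads and carry their sampling error as well as the spread between replicates, which matters most where counts are low.

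The 10 genes, lists and markers were chosen with earlier results of these data known. All 10 genes are named, from each other list the 2 with the highest mean TPM where none pass, the 5 genes most alike to the 10, and the transcripts of the 10 with a mean TPM of at least 0.5, summarised where they are many. Predicted genes are left unnamed. Exons were read from GRCm38 with GENCODE M21.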

Additional observations from a re-analysis of the deposited data

How the results depend on the processing

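Alternatives were DESeq2 size factors, upper-quartile factors, no filter, at least 1 CPM in 3 libraries, the DESeq2 test, limma-voom with quality weights, limma on log2 TPM with 1 or 0.1 added, length trends removed, an adjusted p of 0.1, and each library left out in turn. Genes past the threshold numbered 0 by edgeR (1170 at an unadjusted p under 0.05), 62 by the DESeq2 test and 4323 by limma-voom with quality weights, and 0 to 3391 with a library left out, the last without rhCYGB replicate 1. Transcripts past it numbered 0, and 0 to 958 with a library left out, again highest without rhCYGB replicate 1. The median log2 fold change of the 10 genes was -0.65, and was -1.38 on log2(TPM + 0.1) (-0.75 over all genes). With a library left out it ran from -0.83 to -0.41 (-0.13 to 0.01 over all genes), and 8 to 9 of the 10 were lower. In those fits, 4 to 8 of the 10 were lower without overlap, 8 of them without rhCYGB replicate 1, when 34.5% of all genes were. With length trends removed, 7 of the 10 were lower and 3 were lower without overlap. With DESeq2 size factors these counts were 8 and 3. Apart from that 34.5%, shares over all genes are not given for these fits. The counts are thus no result about the 10 genes as a set. Fn1 reversed to 0.18 with length trends removed. Bgn, at -0.02 and at -0.15 to 0.14 with a library left out, reversed to 0.015 with DESeq2 size factors, 0.0046 by the DESeq2 test, 0.20 with quality weights, 0.10 with length trends removed, 0.12 without vehicle replicate 2 and 0.14 without rhCYGB replicate 1. The causes were not tested. No paired analysis was possible because the labels give the groups no shared replicate numbers.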
